A study of Mus musculus with 2 samples.

Results

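The genes described here are 8 subunits of the Polycomb repressive complexes: Ezh2, Eed, Suz12, Jarid2, Mtf2, Pcgf6, Kdm2b and Cbx7. They were taken by gene symbol from the 32285 genes in the files, and all 8 were found. Their levels were followed across cell states and passage in mouse embryonic stem (ES) cells. The cells were C3H/HeSn-Paf/J lines from embryos with XX, XO or XY sex chromosomes, 3 lines of each kind. All 9 lines were grown on gelatin and irradiated feeder fibroblasts in serum medium with LIF, the cytokine that sustains ES cell self-renewal, and were mixed before capture. One pool was sequenced at an early passage (time 1) and one after 10 further passages (time 2), a period meant to let aneuploid cells accumulate. Each time point is 1 library, and cells were not assigned to lines, so passage, library and the mix of lines cannot be told apart. No value below has a test or a replicate, and all intervals are 95% intervals of the counting error only.

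Polycomb group proteins keep developmental genes silent. Polycomb repressive complex 2 (PRC2) methylates lysine 27 of histone H3 through its catalytic subunit Ezh2, which needs Eed and Suz12 to be active. Accessory subunits such as Jarid2 and Mtf2 bring PRC2 to its sites, chiefly CpG islands. Polycomb repressive complex 1 (PRC1) ubiquitylates histone H2A. It occurs in a canonical form, which reads the PRC2 mark through chromobox proteins such as Cbx7, and in variant forms, which are recruited without it, for example by the CpG-binding protein Kdm2b or in the Pcgf6-containing complex PRC1.6. In ES cells these complexes hold lineage regulators in a poised state.

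After filtering, 23197 cells remained at time 1 and 25520 at time 2, with medians of 44395 and 50433.5 unique molecular identifiers (UMIs, one per captured RNA molecule) per cell. The libraries shared 158 barcodes. Clustering without any Polycomb or Polycomb target gene gave 14 clusters, each called here by its leading gene. The 4 clusters of at least 1000 cells with the highest pluripotency markers, led by Rhox9, Nanos3, Mras and Usp26, are called the main ES clusters, by a rule set after the data were seen. They held 9177 cells (39.6%) at time 1 and 19826 (77.7%) at time 2. The makeup of the pool differed strongly between libraries: the Rhox9-led cluster had 7322 cells at time 1 and 827 at time 2, and the Mras-led cluster 53 and 9817. The Rhox9-led, Mras-led and Nanos3-led clusters had none of the 12 pluripotency markers used here in their top 10 genes. Their medians of the 12 pluripotency markers were 221, 213 and 214 CPM (UMIs of a gene per 1000000 UMIs of the pooled cells), against 307 CPM in the Usp26-led cluster. The Rhox9-led cluster also had the trophoblast markers Krt7 and Ascl2 in its top 10. Its 8 trophoblast markers summed to 176 CPM at time 1 and 173 CPM at time 2. In the Nanos3-led cluster they summed to 127 and 109 CPM, in the Usp26-led to 86.2 and 56.1 CPM and in the Mras-led to 39.6 CPM at time 2. The main ES clusters are therefore not named as one cell type, and values within clusters are given beside the pooled levels of the 8 genes between time points and with X dosage, and beside those of some other genes. Pooled values given without them may hold differences in cluster makeup, which were not tested. The Fgf8-led cluster was primed epiblast-like (Fgf5, Fgf8 and Pou3f1 led it), with 5962 and 212 cells. The Lhx1-led cluster was mesendoderm-like, with the trophoblast marker Hand1 also leading it, the B020031M17Rik-led cluster 2-cell-like and the Mgp-led cluster fibroblast-like. The Notch2-led cluster, of 5957 cells at time 1 and a median of 28845 UMIs over both libraries, and the Ebf1-led and Fli1-led clusters stayed unnamed. Levels are given for clusters of at least 100 cells in a library.

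Promoters are shown for Mtf2, Jarid2 and Suz12, the genes that were lowest against the main ES clusters in the primed epiblast-like cells of time 1, and for Ezh2, which was nearly level there. Each run holds 250 bases before and 50 after the most upstream start in RefSeq's GRCm38.p6 table, 5′ to 3′ on the gene's strand. Mtf2 lies at chr5:108065424-108065723 (plus strand), Jarid2 at chr13:44730524-44730823 (plus), Suz12 at chr11:79992856-79993155 (plus) and Ezh2 at chr6:47594981-47595280 (minus). Capitals mark matches on either strand to CCAAT, the binding motif of the factor NF-Y, or to the E2F motif forms TTTCCCGC, TTTGGCGC, TTTGCCGC and TTTCGCGC, and the matches did not overlap. The GC box GGGCGG and the E-box CACGTG were also searched on both strands and are not in capitals.
Mtf2: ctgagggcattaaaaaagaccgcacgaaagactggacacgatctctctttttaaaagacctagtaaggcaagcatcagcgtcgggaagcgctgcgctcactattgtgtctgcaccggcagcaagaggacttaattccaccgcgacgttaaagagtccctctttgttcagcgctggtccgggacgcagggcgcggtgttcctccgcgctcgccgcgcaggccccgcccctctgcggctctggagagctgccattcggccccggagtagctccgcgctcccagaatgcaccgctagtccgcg
Jarid2: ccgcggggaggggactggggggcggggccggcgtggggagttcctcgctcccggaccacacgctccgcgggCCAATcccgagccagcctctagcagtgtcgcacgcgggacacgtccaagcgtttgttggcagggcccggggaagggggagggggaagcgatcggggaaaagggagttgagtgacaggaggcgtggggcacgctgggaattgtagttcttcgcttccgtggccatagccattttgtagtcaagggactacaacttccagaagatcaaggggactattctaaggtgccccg
Suz12: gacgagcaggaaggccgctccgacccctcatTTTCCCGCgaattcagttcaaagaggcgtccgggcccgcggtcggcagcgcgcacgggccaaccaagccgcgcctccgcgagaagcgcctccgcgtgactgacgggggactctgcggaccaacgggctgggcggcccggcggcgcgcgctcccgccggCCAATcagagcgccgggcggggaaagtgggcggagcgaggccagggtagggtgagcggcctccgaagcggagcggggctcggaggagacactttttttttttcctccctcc
Ezh2: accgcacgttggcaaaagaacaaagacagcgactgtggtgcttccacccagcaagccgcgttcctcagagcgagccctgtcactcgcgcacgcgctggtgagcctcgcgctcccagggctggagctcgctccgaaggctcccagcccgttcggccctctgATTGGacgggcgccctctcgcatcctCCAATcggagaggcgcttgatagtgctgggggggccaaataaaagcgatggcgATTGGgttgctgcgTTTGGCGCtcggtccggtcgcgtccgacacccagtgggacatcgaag
All 4 windows were rich in CpG, with 30 CpG dinucleotides for Mtf2, 24 for Jarid2, 41 for Suz12 and 31 for Ezh2, against a median of 7 over 32851 promoters. An E2F form stood in the windows of Ezh2 (TTTGGCGC, starting 3 bases after the start) and Suz12 (TTTCCCGC, starting 219 bases before it), and 2.26% of all promoters held one. The Ezh2 window had 3 CCAAT matches, those of Suz12 and Jarid2 had 1 each and that of Mtf2 had none, and 37.4% of all promoters held one. The GC box matched once in the Mtf2 window, once in that of Jarid2 and 3 times in that of Suz12, and did not match in that of Ezh2, and 35.7% of all promoters held it. It also matched in the windows of Pcgf6, Kdm2b and Cbx7, and not in that of Eed. The E-box matched in none of the 8. These matches describe letters only.

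Among the PRC2 core subunits, Ezh2 is the methyltransferase (chromosome 6). Outside the fibroblast-like cluster it ran from 141 to 234 CPM at time 1 and from 184 to 258 CPM at time 2. At time 1 its level in the pooled main ES clusters was 200.1 CPM (interval 199 to 201), and at time 2 it was 242 CPM (interval 241 to 243). Its ES cluster levels ran from 198 CPM (Rhox9-led) to 234 CPM (Nanos3-led) at time 1 and from 201 CPM (Rhox9-led) to 258 CPM (Mras-led) at time 2. In the primed epiblast-like cluster it was 196 CPM in both libraries, with intervals of 195 to 198 and 187 to 205. These were log2 differences from the pooled main ES clusters of the same library of -0.03 and -0.31, computed as all differences below on log2(CPM + 1). At time 1 the primed epiblast-like and Rhox9-led intervals overlapped. The mesendoderm-like cluster held 177 CPM (174 to 180.0) and 184 CPM (180.0 to 189), and the lowest value outside the Mgp-led cluster was 141 CPM, in the Notch2-led cluster at time 1.

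Eed, the subunit that binds the methylated histone and stimulates the enzyme (chromosome 7), varied more among the main ES clusters. At time 1 it was 137 CPM in the Nanos3-led, 136 in the Usp26-led and 96.1 CPM in the Rhox9-led cluster. At time 2 it was 177 CPM in the Mras-led cluster, 149.9 in the Usp26-led, 136 in the Nanos3-led and 91.3 CPM in the Rhox9-led cluster, a 1.94-fold range. The Rhox9-led interval at time 2 overlapped that of the Fli1-led cluster (90.3 CPM), whose interval overlapped that of the Ebf1-led cluster (87.6 CPM). The primed epiblast-like cluster had 70.2 CPM at time 1 and 74.8 at time 2, log2 differences of -0.59 and -1.06. Exons of Eed overlap those of E230029C05Rik on the other strand, as do Mtf2 and Tmed5, Kdm2b and Rnf34 or A930024E05Rik, and Cbx7 and Apobec3. The use of strand in counting is not given in the sources used here, so some of their UMIs could belong to these neighbours.

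Suz12, the scaffold that holds PRC2 together (chromosome 11), was higher in every main ES cluster than in any other cluster of the same library. Its ES cluster levels ran from 193 CPM (Rhox9-led) to 219.9 CPM (Usp26-led) at time 1, and from 136 CPM (Mras-led) to 200.5 CPM (Usp26-led) at time 2. The highest value elsewhere was 144 CPM, in the 2-cell-like cluster, at time 1 and 119.8 CPM, in the primed epiblast-like cluster, at time 2. The latter held 116 CPM (115 to 117) at time 1, and its 2 levels were -0.77 and -0.35 from the pooled main ES clusters on the log2 scale. At time 2 the mesendoderm-like cluster had 97.7 CPM, and the Ebf1-led (93.2 CPM) and Fli1-led (90.8 CPM) clusters could not be ordered, as their intervals overlapped.

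Jarid2 and Mtf2, the accessory subunits, differed most between states: the SD of the log2 level over clusters was 0.67 and 0.81 at time 1 and 0.59 and 0.68 at time 2, against 0.35 to 0.55 for the other 6 genes. Jarid2, which helps PRC2 bind and start methylating new sites (chromosome 13), was 279 to 318 CPM in the ES clusters of time 1 and 293 to 310.4 CPM in those of time 2. The highest other cluster had 186 CPM (2-cell-like) at time 1 and 181 CPM (Ebf1-led) at time 2, so no cluster overlapped the ES range. In the primed epiblast-like cluster it was 154 CPM (153 to 156) and 160.1 CPM (152 to 168), log2 differences of -0.87 and -0.94.

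Mtf2, also called PCL2, which links PRC2 to unmethylated CpG DNA (chromosome 5), had the widest range of the 8 genes in both libraries, 4.71-fold at time 1 and 3.70-fold at time 2. It was highest in the Usp26-led cluster, the ES cluster with Tbx3 among its leading genes, at 336 CPM (333 to 339.5) and 353 CPM (349.6 to 356). The other ES clusters held 217 to 279 CPM. The primed epiblast-like cluster had 129 CPM in the first library (128 to 131) and 123 CPM in the second (117 to 131), log2 differences of -0.98 and -0.95. In the 2-cell-like cluster, of 146 cells at time 1, Mtf2 was 322 CPM (309 to 336), which overlapped the Usp26-led interval and was 0.33 above the main ES clusters, while Jarid2 was below them (-0.61). At time 2, when that cluster had under 100 cells, every ES cluster lay above every other cluster, whose highest value was 123 CPM.

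Of the PRC1 subunits, Pcgf6, the defining subunit of PRC1.6 (chromosome 19), was 75.3 to 95.3 CPM in the ES clusters of time 1 and 79.6 to 108 CPM in those of time 2. Its primed epiblast-like level was 74.7 CPM (log2 -0.09) at time 1 and 76.8 CPM (log2 -0.42) at time 2, and in both libraries its interval there overlapped that of the Rhox9-led cluster. Kdm2b, the CpG-binding recruiter of a variant PRC1 (chromosome 5), showed another order. Its levels in the Usp26-led (46.3 CPM), primed epiblast-like (45.2), mesendoderm-like (43.3) and 2-cell-like (40.9 CPM) clusters of time 1 had intervals that overlapped from each to the next. All 4 lay above the Rhox9-led (27.9 CPM) and Nanos3-led (26.5 CPM) ES clusters. At time 2 the Usp26-led cluster was highest, at 53.4 CPM, and the primed epiblast-like cluster held 35.9 CPM.

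Cbx7, the main chromobox protein of canonical PRC1 in ES cells (chromosome 15), was 41.1 to 50.1 CPM in the ES clusters of time 1 and 34.0 to 43.5 CPM in those of time 2. The primed epiblast-like cluster lay inside the first range, at 46.0 CPM (45.2 to 46.8), and inside the second, at 41.6 CPM (37.7 to 45.8). Outside the fibroblast-like cluster the lowest Cbx7 values were those of the mesendoderm-like cluster, with 36.8 CPM (35.5 to 38.2) and 24.8 CPM (23.2 to 26.5), log2 differences of -0.37 and -0.58. The 2-cell-like interval at time 1 (35.6 to 45.2 CPM) and the Fli1-led interval at time 2, around 27.3 CPM, overlapped these.

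**Figure D1:**
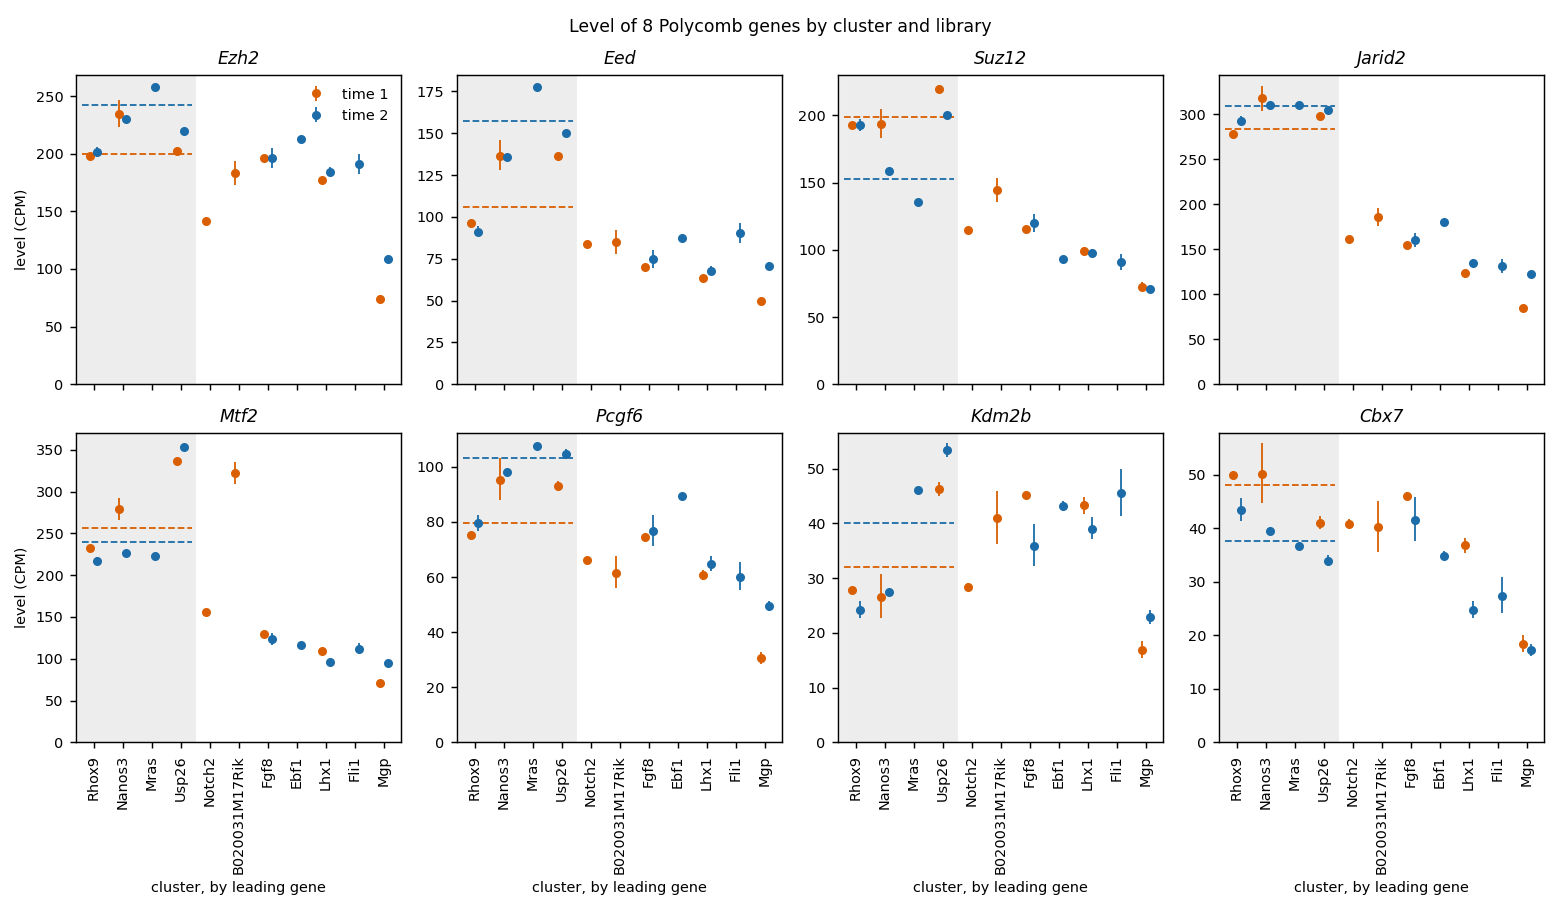
Level in CPM (vertical axes from 0) of the 8 genes in each cluster with at least 100 cells in a library, time 1 in orange and time 2 in blue, with 95% counting intervals. The shaded clusters are the main ES clusters and the dashed lines their pooled level; Suz12 and Jarid2 lie higher there than in any other cluster of the same library, whereas Kdm2b and Cbx7 do not.

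Read over all 8 genes, 5 (Ezh2, Eed, Suz12, Jarid2 and Pcgf6) were higher in every ES cluster than in every other cluster at time 1, where 9.10% of 9565 genes were. At time 2 there were 4 (Eed, Suz12, Jarid2 and Mtf2), where 10.4% of 9245 genes were. The gap was within the counting intervals for Ezh2 and Pcgf6 at time 1 and for Eed at time 2. Past 1.5-fold, 4 genes (Eed, Suz12, Jarid2 and Mtf2) were lower in the primed epiblast-like cluster than in the main ES clusters at time 1, against 9.67% of 9198 genes, and none was higher. Eed lay at the threshold, at -0.59, and missed it at a clustering resolution of 1 (-0.57) and with doublets kept (-0.56), which left 3 genes. At time 2 there were 3 (Eed, Jarid2 and Mtf2), against 9.12% of 8892 genes. The median over the 8 genes was -0.34 at time 1 and -0.39 at time 2, while that of all genes was 0.04 and 0.06. With each ES cluster in turn as the only reference at time 1, Jarid2 was between -1.04 and -0.85 and Mtf2 between -1.37 and -0.84. Suz12 was between -0.92 and -0.73 and Eed between -0.95 and -0.45. Kdm2b was 0.68 against the Rhox9-led and 0.75 against the Nanos3-led cluster, both past 1.5-fold higher, and -0.03 against the Usp26-led cluster.

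In the other clusters outside the main ES set the count of genes past 1.5-fold lower ran from 1 to 8. In the Ebf1-led cluster at time 2 (3763 cells), 4 genes were past 1.5-fold lower, against 9.22% of genes, with Mtf2 at -1.02, Eed at -0.84, Jarid2 at -0.77 and Suz12 at -0.71. In that cluster Pou5f1, the central pluripotency gene, was 782 CPM, Nanog 58.1 CPM and the median of the 12 pluripotency markers 80.9 CPM. In the ES clusters of time 2 Pou5f1 ran from 636 to 898 CPM, Nanog from 95.1 to 265 CPM and that median from 197 to 355 CPM. In the mesendoderm-like cluster 4 were lower at time 1 and 5 at time 2, against 11.0% and 12.1% of genes. Pcgf6 (-0.66) was the one added. The Fli1-led cluster had 5 (13.2% of genes) at time 2. In the 2-cell-like cluster Jarid2 alone was past 1.5-fold lower (5.88% of genes). In the Notch2-led cluster, whose cells were the shallowest, 3 were lower (4.17% of genes) and all 8 differences were negative. Pou5f1 in that cluster was 731 CPM, against 710.3 CPM in the pooled main ES clusters of time 1. The median of its 12 pluripotency markers was 156 CPM, against 223 to 274 CPM in the ES clusters of that library. Kdm2b was higher than in the pooled main ES clusters in the primed epiblast-like (0.49), mesendoderm-like (0.42) and 2-cell-like (0.35) clusters of time 1, and at time 2 it was -0.15 and -0.036 in the first and second of these. In the Ebf1-led and Fli1-led clusters of time 2 Kdm2b was 0.10 (0.07 to 0.14) and 0.18 (0.04 to 0.32). Neither depth nor free RNA was tested as a part of these differences: barcodes under 2000 UMIs held, for example, 272 CPM of Suz12 and 203 CPM of Mtf2 at time 1, more than the 116 and 129 CPM of the primed epiblast-like cluster.

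All 8 genes were past 1.5-fold lower in the fibroblast-like cluster in both libraries, against 27.1% of genes at time 1 and 24.8% at time 2. There Ezh2 stood at 74.3 and 109 CPM, Jarid2 at 84.6 and 123 CPM, Mtf2 at 71.3 and 95.3 CPM and Cbx7 at 18.4 and 17.3 CPM. Pou5f1 was also found in that cluster, at 293 and 359 CPM against 710.3 and 788 CPM in the main ES clusters, and its 12 pluripotency markers summed to 3550.5 and 3318 CPM. How far RNA of ES cells makes up its Polycomb levels was not tested.

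Between time points, 3 of the main ES clusters could be compared within themselves. None of the 8 genes was past 1.5-fold in any of them, where few genes of any kind were: 1.89% in the Rhox9-led, 4.69% in the Nanos3-led and 6.31% in the Usp26-led cluster, in either direction. Eed differed by -0.07 (-0.12 to -0.02) in the Rhox9-led, -0.01 (-0.11 to 0.09) in the Nanos3-led and 0.14 (0.11 to 0.17) in the Usp26-led cluster. Ezh2 differed by 0.02, -0.03 and 0.12 in the same order, and Jarid2 by 0.07, -0.03 and 0.03. Cbx7 was lower at time 2 in each of the 3, by -0.20, -0.33 and -0.27, and also in the mesendoderm-like cluster (-0.55). In the primed epiblast-like (-0.14, with an interval of -0.28 to 0.00002) and fibroblast-like (-0.08, with an interval of -0.24 to 0.07) clusters its interval reached 0. Suz12 was lower in the Nanos3-led (-0.29) and Usp26-led (-0.13) clusters and level in the Rhox9-led cluster (-0.001, with an interval of -0.04 to 0.03). Mtf2 had no common direction, with -0.10, -0.30 and 0.07, and neither had Kdm2b, with -0.20, 0.05 and 0.20. Time 1 had 104 cells in the Nanos3-led cluster, so its intervals were the widest. In barcodes under 2000 UMIs, taken as free RNA, Cbx7 was 74.9 CPM at time 1 and 41.3 CPM at time 2, and Suz12 272 and 189 CPM. Eed alone of the 8 genes was higher in free RNA at time 2 (113 and 126 CPM). The part of free RNA in the differences between time points was not tested. With trimmed mean scaling, Cbx7 stayed below 0 in the 3 clusters (-0.25, -0.25 and -0.20), whereas Ezh2 changed sign in the Rhox9-led (-0.03) and Nanos3-led (0.06) clusters and Eed (0.08) and Jarid2 (0.05) in the Nanos3-led cluster.

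In the pooled main ES clusters Eed was 106 CPM in the first library (105 to 107) and 157 CPM in the second (157 to 158), a log2 difference of 0.57 (0.56 to 0.58), just under 1.5-fold. No gene of the 8 was past that limit, where 5.04% of 8866 genes were higher and 10.8% lower. Pcgf6 was 79.6 and 103 CPM (0.37), Kdm2b 32.0 and 40.1 CPM (0.32), Ezh2 differed by 0.28 and Jarid2 was 284 and 309 CPM (0.12). Mtf2 was 256 and 239 CPM (-0.10). Suz12 was lower at time 2, at 153 against 199 CPM (-0.38), as was Cbx7, at 37.5 against 48.0 CPM (-0.35). So the pooled PRC2 core subunits differed in direction, with Eed and Ezh2 higher and Suz12 lower. The median over the 8 genes was 0.20 and that of all genes -0.04. Without the Rhox9-led cluster the Eed difference was 0.22, and without the Mras-led cluster it was 0.36. Kdm2b turned to -0.15 without the Rhox9-led cluster and was 0.069 without the Mras-led one. Suz12 was -0.52 and -0.22, Mtf2 -0.46 and 0.001, Pcgf6 0.15 and 0.30 and Cbx7 -0.15 and -0.31 in the same order. Ezh2 was 0.24 and 0.17, and Jarid2 0.041 and 0.12. Without the Nanos3-led cluster Kdm2b was 0.52. Over all filtered cells Suz12 was -0.087 and Jarid2 0.42. The part of cluster makeup in the pooled differences was not tested further.

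Scaling also moved the pooled comparison. Trimmed mean scaling shifted all genes by 0.14, and the calls past 1.5-fold went from 31.8% to 56.9% higher ones. Under it Eed stood at 0.71, past 1.5-fold, Suz12 at -0.24 and Cbx7 at -0.21, while Mtf2 changed sign to 0.04. Chromosome gains, which the longer culture was meant to collect, were not measured here for the chromosomes that carry these genes.

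**Figure D2:**
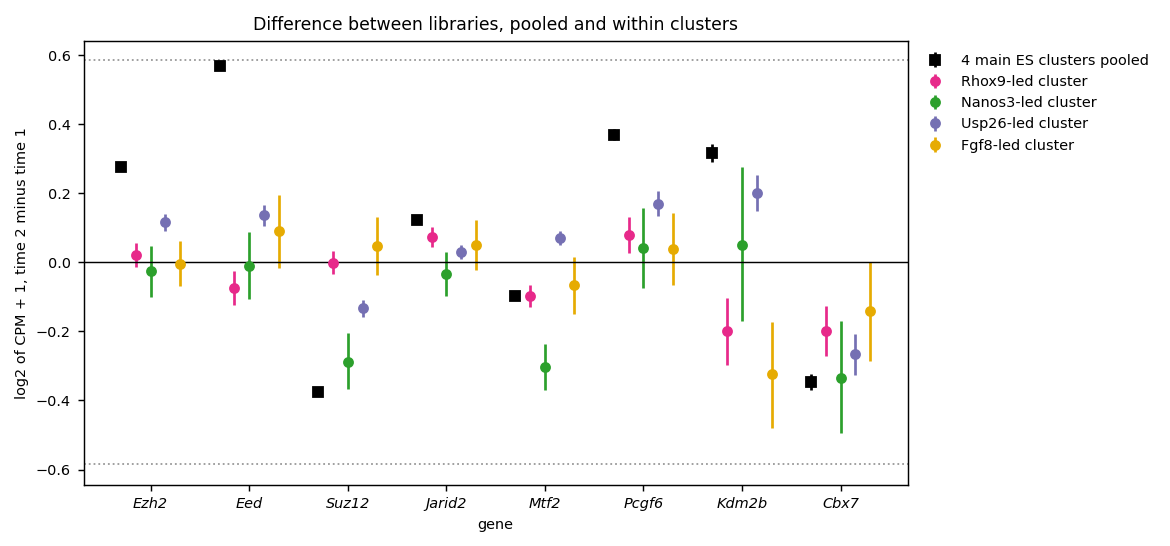
Difference between libraries in log2(CPM + 1), time 2 minus time 1, for each gene in the 4 main ES clusters pooled (squares) and within single clusters (circles), with 95% counting intervals and dotted lines at 1.5-fold. All values shown are scaled to total UMIs. Eed lies at 0.57 when clusters are pooled and between -0.07 and 0.14 within the 3 ES clusters, whereas Cbx7 lies below 0 in all of them.

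The share of ES cluster cells with at least 1 UMI, each cell thinned to 10000 UMIs, followed the levels. For Eed it was 62.0% (60.98 to 62.98, Clopper-Pearson) at time 1 and 76.6% (76.0 to 77.2) at time 2, and at full depth 95.6% and 98.8%. Within the Rhox9-led cluster the Eed shares were 59.2% and 57.3%, in the Nanos3-led 66.3% and 72.4% and in the Usp26-led 73.4% and 76.7%, so each difference was smaller than the pooled one, and in all 3 clusters the intervals of the time points overlapped. The share for Cbx7 was 37.0% and 30.6%, and that for Suz12 81.3% and 75.0%. Kdm2b was found in the fewest thinned cells of the 8 genes at time 1, 26.3%, and in 31.2% at time 2. In the fibroblast-like cluster, with the Pou5f1 levels given above, the shares were 38.6% and 38.3% for Eed and 19.2% and 12.3% for Cbx7.

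X dosage was compared because XX ES cells can carry a second active X chromosome, a state known to go with reduced DNA methylation and altered signalling. It was the X-linked share of UMIs over the autosomal one, relative to cells with at least 2 Y-linked UMIs, among ES cluster cells without any. Cells at 1.2 or above (X-high) numbered 4984 at time 1 and 2646 at time 2, and the rest (X-low) 2861 and 14648. These classes are ranges of a score, and 369 and 1020 cells lay within 0.1 of the limit. Cells without Y-linked UMIs can come from XX or XO lines and were not assigned to lines. X dosage, line and chromosomal sex therefore cannot be told apart in this comparison. None of the 8 genes, all autosomal, was past 1.5-fold, where 8.12% of genes at time 1 and 12.5% at time 2 were in either direction. Ezh2 was lower in X-high cells, at 189.8 against 216 CPM (-0.18) at time 1 and 217 against 247 CPM (-0.19) at time 2, and Eed likewise (-0.14 and -0.19). Suz12 was higher, at 208 against 181 CPM (0.21) and 198 against 144 CPM (0.45). Mtf2 was higher by 0.16 and 0.55. X-high cells were also deeper, with medians of 52381 and 56216 UMIs against 46146 and 49037.5, and the part of depth was not tested.

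Within clusters only some of these held. The Rhox9-led cluster had at least 100 cells of both classes in both libraries and the Nanos3-led cluster at time 2. The Nanos3-led cluster then held 204 X-high and 5899 X-low cells. The values within clusters have no counting intervals, so those near 0 may not differ from 0. Ezh2 was lower in X-high cells in all 3 cases, by -0.22 and -0.12 in the Rhox9-led and -0.14 in the Nanos3-led cluster. Suz12 was higher in all 3, by 0.17, 0.44 and 0.18, as was Jarid2, by 0.17, 0.42 and 0.19. Kdm2b was lower in the Rhox9-led cluster, by -0.24 and -0.36, and near 0 in the Nanos3-led cluster (-0.07), although its pooled differences were 0.10 and 0.27. For Eed the values were -0.41, 0.02 and -0.10, and for Mtf2 -0.04, 0.27 and 0.02. The Usp26-led cluster, where Mtf2 and Kdm2b were highest, and the Mras-led cluster gave no value because 1 class held fewer than 100 cells. X-linked UMIs define the X-high cells, so higher levels of X-linked genes there are part of the definition. The values of 3 such genes are given as a description: Rbbp7, a histone-binding PRC2 subunit (0.55 and 0.48), Bcor, a variant PRC1 subunit (1.03 and 0.32), and Kdm6a, which opposes Polycomb as a demethylase that removes the PRC2 mark (1.00 and 0.87).

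**Figure D3:**
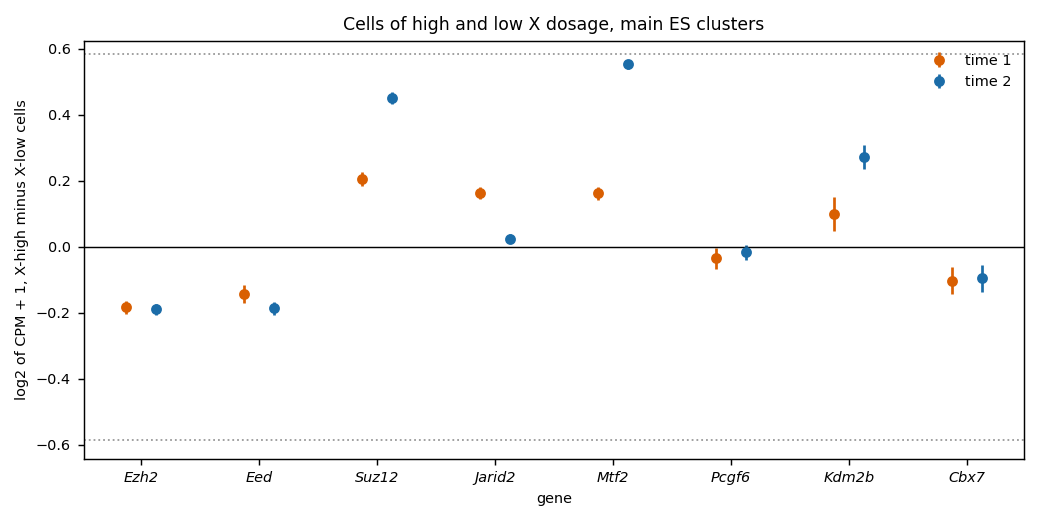
Difference in log2(CPM + 1) between X-high and X-low cells of the main ES clusters, time 1 in orange and time 2 in blue, with 95% counting intervals and dotted lines at 1.5-fold. Ezh2 and Eed lie below 0 and Suz12 and Mtf2 above it in both libraries, and no gene passes the lines.

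Along the cell cycle, cells with a higher S phase score were set against those with a higher G2 and M phase score (G2M), since only 69 and 37 cells scored low on both. No gene was past 1.5-fold, where 1.18% of all genes at time 1 and 0.687% at time 2 were. Jarid2 was lower in S than in G2M cells, at 235 against 300.3 CPM (-0.35) at time 1 and 272 against 333 CPM (-0.29) at time 2. Mtf2 was lower by -0.33 and -0.06. Eed was higher in S phase cells by 0.09 and 0.18 and Suz12 by 0.06 and 0.17. S cells were also shallower, with medians of 42664 and 44560 UMIs against 54734 and 56150.5, and after each cell was thinned to 10000 UMIs before scoring the differences kept their signs in these 4 genes. They were then -0.28 and -0.27 for Jarid2, -0.29 and -0.055 for Mtf2, 0.13 and 0.13 for Eed and 0.022 and 0.14 for Suz12.

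The wider list held 56 genes, the 8 included. Besides subunits of the Polycomb complexes it held 5 opposing enzymes and cofactors: Bap1, Asxl1, Asxl2, Kdm6a and Kdm6b. Of the 56, 54 matched by symbol and 49 averaged at least 5 CPM in the main ES clusters. Between time points 2 of the 49 were past 1.5-fold higher and 6 lower, with a median of -0.09, against 5.04% and 10.8% of all genes. Pcgf1, at 6.30 and 3.76 CPM, is among the 6 and passed the 5 CPM minimum through time 1 alone. The 2 higher ones were Epop, a PRC2 subunit that binds elongin (77.4 and 131 CPM, 0.75), and Asxl1, a cofactor of the H2A deubiquitinase (43.7 and 71.3 CPM, 0.69). Epop differed by 0.83 in the Usp26-led cluster but by 0.25 and 0.05 in the Rhox9-led and Nanos3-led clusters. Lowest among genes with a mean of 20 CPM or more was Pcgf5, a variant PRC1 subunit (47.6 and 16.6 CPM, -1.47), which reached 20 CPM at time 1 alone. Next were Bcor (36.0 and 20.4 CPM, -0.79) and Rbbp7 (352 and 206 CPM, -0.77). Within the Rhox9-led, Nanos3-led and Usp26-led clusters the differences were smaller than the pooled ones, with 0.19, 0.34 and 0.43 for Asxl1, -0.27, 0.02 and -0.53 for Bcor and -0.33, -0.26 and -0.16 for Rbbp7. Pcgf5 was also lower within the Usp26-led (-0.83), Nanos3-led (-0.51) and Rhox9-led (-0.16) clusters. Kdm6a, the other X-linked gene at that level, was -0.47 when pooled and between -0.11 and -0.059 within these clusters. In X-low cells alone Bcor was -0.14, Kdm6a 0.04 and Rbbp7 -0.48, and in X-high cells alone they were -0.84, -0.092 and -0.55. Epop was 0.72 in X-low and 1.47 in X-high cells. Of the 8 genes Mtf2 alone had opposite signs, with -0.10 in X-low and 0.29 in X-high cells. Suz12 was -0.32 and -0.07 and Kdm2b 0.34 and 0.51 in the same order. The Rhox9-led cluster held 3436 of the 4984 X-high cells at time 1 and 359 of the 2646 at time 2. It held 2723 of the 2861 X-low cells at time 1 and 350 of the 14648 at time 2. Both classes thus differed in cluster makeup between time points, and its part in these values was not tested. Of the canonical PRC1 genes, 5 (Cbx6, Cbx7, Phc1, Phc2 and Scmh1) held 5 CPM or more in both libraries, with pooled differences between -0.51 and -0.17, and between -0.38 and -0.03 with trimmed mean scaling. Cbx2 and Phc3 passed the minimum through time 1 alone.

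Against the main ES clusters of time 1, the primed epiblast-like cluster had 13 of the 49 lower and 4 higher, where 9.67% and 9.87% of all genes were. The 5 CPM minimum was taken in the main ES clusters, and of the 49 Phf19 alone was under 5 CPM in the primed epiblast-like cluster (2.14 CPM, against 14.6 CPM in the main ES clusters), so its place among the 13 follows in part from the minimum. The other PRC2 accessory genes among them were Mtf2, Jarid2, Aebp2 (-0.76), Epop (-0.63) and Lcor (-0.61), and the core genes were Suz12 and Eed. The rest were PRC1 genes: Scmh1 (-0.94), L3mbtl2 (-0.72), Bcor (-0.68), Pcgf5 (-0.64) and Fbrsl1 (-0.63). So the lower genes came from both complexes. Higher were Yaf2 (1.55), the opposing enzyme Kdm6b (0.84), Phc2 (0.78) and E2f6 (0.66). The genes named in this comparison beside the 8 were chosen after their values were seen.

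**Figure D4:**
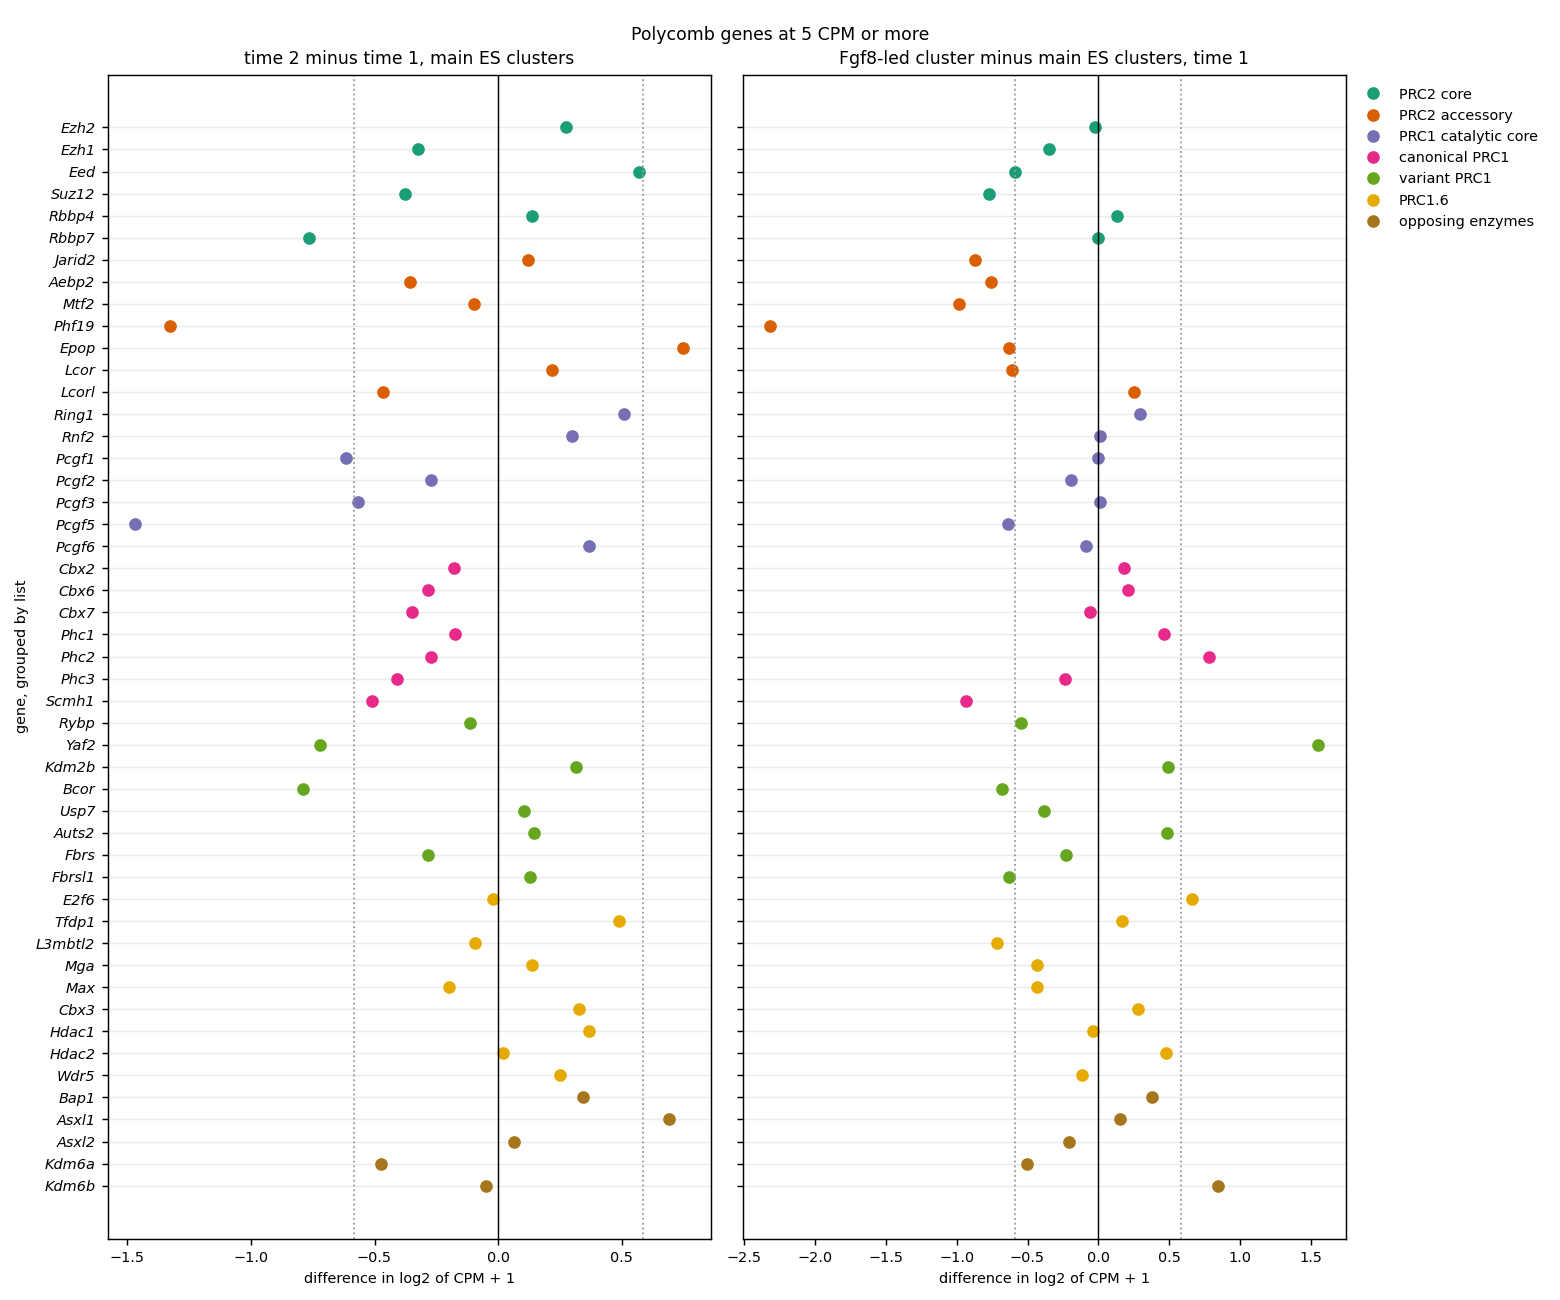
Difference in log2(CPM + 1) of the 49 genes of the wider list at 5 CPM or more, coloured by complex or as opposing enzymes, between time points in the main ES clusters (left) and between the primed epiblast-like (Fgf8-led) cluster and the main ES clusters at time 1 (right), with dotted lines at 1.5-fold. On the left 2 genes lie past the upper line and 6 past the lower, and on the right 4 and 13, among them Phf19 at the far left, which is at 2.14 CPM in the primed epiblast-like cluster.

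Genes known as Polycomb targets were mostly near 0 in the main ES clusters. Of 30 developmental targets 3 averaged at least 5 CPM, and only Cdkn2a, a cell cycle inhibitor gene, did so in both libraries, at 51.8 and 23.4 CPM (-1.12), where 10.8% of all genes were past 1.5-fold lower. Within the Rhox9-led, Nanos3-led and Usp26-led clusters Cdkn2a differed by -0.30, -0.15 and -0.45, none of them past 1.5-fold, and the Nanos3-led interval (-0.34 to 0.046) held 0. The 30 genes summed to 360.2 and 542 CPM in the mesendoderm-like cluster, with T at 41.6 and 139 CPM, and to between 45.5 and 110.5 CPM in the ES clusters. T and 2 other genes of the list were left out of the clustering but are among the 10 leading genes of the mesendoderm-like cluster. Leading genes gave the cluster its name, so part of that sum goes with the naming. In the primed epiblast-like cluster the sum was 162 CPM at time 1. In the fibroblast-like cluster Cdkn2a alone held 493 and 233 CPM. Of 15 germline targets of PRC1.6, 8 averaged at least 5 CPM, of which 6 were below 0 and 2 above between time points. The median of all genes was -0.04. Stag3, at 5.76 and 4.56 CPM, is among the 6 and passed the minimum through time 1 alone. Of the 8, 2 were past 1.5-fold lower: Smc1b, a meiotic cohesin subunit (53.3 and 19.1 CPM, -1.44), and Sycp3, of the synaptonemal complex (20.98 and 11.5 CPM, -0.82). Within the same 3 clusters Smc1b differed by -0.48, -0.61 and -0.29, and Sycp3 by 0.29, -0.60 and -0.22. The Nanos3-led values, with intervals of -0.85 to -0.36 for Smc1b and -0.87 to -0.33 for Sycp3, reach to both sides of the 1.5-fold limit, and Sycp3 was higher at time 2 in the Rhox9-led cluster. Stra8, a gene of meiotic entry, was 24.5 and 18.3 CPM (-0.40), and -0.57, 0.18 and 0.14 within these clusters. The 15 summed to 229 and 213 CPM in the Usp26-led cluster, which has Dazl of this list among its 10 leading genes, to 207 CPM in the 2-cell-like cluster of time 1 and to between 91.1 and 155 CPM in the other ES clusters.

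Over the 17 points of cluster by library, and with no test, since the points share libraries, Suz12 was most alike Mtf2 among the 8 genes (r = 0.92) and Jarid2 (r = 0.91), and Ezh2 was most alike Pcgf6 (r = 0.92). Kdm2b stood apart, with r between 0.20 (Suz12) and 0.64 (Ezh2). Among 5199 genes with a mean of at least 20 CPM, those most alike were Bub1b (r = 0.98) and Nup155 (0.97) for Ezh2 and Rpap1 (0.95) and Zmym1 (0.94) for Eed. For Suz12 they were Sbno1 and Atrx (0.97 each), for Jarid2 Hsp90aa1 and Rest (0.98 each) and for Mtf2 Ticrr (0.98) and Akap1 (0.96). Pcgf6 was most alike Mcm10 and Chek1 (0.98 each) and Cbx7 H2afv and Prpsap2 (0.96 each). For Kdm2b the closest was Rnf2, the catalytic ubiquitin ligase of PRC1 (0.90), then Eif2b1 (0.88).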

How the data were processed

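Single-cell libraries were made with 10x Chromium reagents of version 3.1, per the labels' protocols. The deposited values are UMI counts, whole numbers per gene and barcode with no normalisation, written by Cell Ranger 6.1.2 according to the file headers. The submitters' processing notes also name bcl2fastq 2.20.0.422 and the builds mm10 and GRCm38. Of 32285 genes, 32235 matched GENCODE release 21 by identifier, which gave coordinates.

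The files hold 145288 barcodes (1735810403 UMIs) at time 1 and 52242 (1843588321 UMIs) at time 2. A UMI minimum was set in each library at 0.1 times the 99th percentile of its 20000 largest barcodes (18315 and 18646 UMIs). Barcodes with fewer than 1000 genes or over 10% mitochondrial UMIs were dropped. Scrublet's automatic threshold marked 0 and 1 cells and so did not work. The highest 10% of its scores in each library (2539 and 2729 cells) were removed instead, a choice made after the scores were seen. Free RNA was taken from barcodes under 2000 UMIs (87011 and 12277), since the smallest barcodes in the files have 500 and 524 UMIs.

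Clusters came from 2000 variable autosomal genes, without the 8 genes, the other Polycomb genes or their targets, 30 principal components, 15 nearest neighbours and the Leiden algorithm at resolution 0.5 (Python 3.11.15, scanpy 1.11.5, igraph 0.11.9). An earlier clustering procedure gave borders and leading genes that varied between runs. It was replaced by an exactly repeatable one (rounded components, whole-number graph weights) after its clusters had been seen.

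Each level is a gene's summed UMIs over cells in counts per 1000000 UMIs of those cells (CPM), with exact Poisson intervals. Differences use log2(CPM + 1), a pseudocount of 1 that understates changes of low genes, and "past" means 1.5-fold on that scale. Backgrounds are genes with a mean of at least 5 CPM. With 1 library per time point no test was possible. Trimmed mean factors came from edgeR 4.0.16 (R 4.3.3) and served for scaling only. The level and interval steps were checked on simulated counts. Alternatives covered the pseudocount, scaling, cell filters, doublets, clustering, X limit, phase limits and thinning.

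Named were all 8 genes, the 3 highest and 3 lowest of the wider list between time points at a mean of 20 CPM or more, its X-linked genes at that level, the 3 highest genes of each target list (some are not reported here), and the 2 genes most alike each member. The members and lists were chosen with earlier results of these data known. The lipid tags of the lines were not analysed here.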

Additional observations from a re-analysis of the deposited data

Results flagged for a closer look

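For 3 differences the libraries pointed in opposite directions, with counting intervals off 0 on both sides. Kdm2b was higher in the primed epiblast-like cluster than in the pooled main ES clusters at time 1 (0.49) and lower at time 2 (-0.15), so the log2 difference was 0.64 lower (-0.64) at time 2. Cbx7 in the same contrast was -0.06 and 0.15, a change of 0.21. Ezh2 was lower in S than in G2M cells at time 1 (-0.08) and higher at time 2 (0.07), a change of 0.15. None of these changes was tested, since each time point is 1 library. Beside the first, the primed epiblast-like cluster held 5962 and 212 cells, and the main ES clusters held 7322 Rhox9-led cells of 9177 at time 1 (Kdm2b at 27.9 CPM), and 9817 Mras-led (46.1 CPM) and 7037 Nanos3-led cells (27.5 CPM) of 19826 at time 2.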

How the results depend on the processing

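No paired analysis was possible because each time point is 1 library with no replicate. Between time points the median over the 8 genes (0.20) was 0.34 with trimmed mean scaling, 0.23 with scaling to autosomes other than 1, 8 and 14, 0.24 with the primed epiblast-like cluster added, 0.27 over all filtered cells, 0.26 over these with doublets kept, 0.28 over these at a minimum of 5000 UMIs and 0.22 with cells thinned to 10000 UMIs. Chosen after seeing the data, leaving out 1 ES cluster gave 0.093 (Mras-led), -0.053 (Rhox9-led), 0.22 (Nanos3-led) and 0.22 (Usp26-led), and single clusters gave -0.038 (Rhox9-led), -0.031 (Nanos3-led) and 0.093 (Usp26-led). No gene was past 1.5-fold, but 1, Eed, was with trimmed mean scaling, with scaling to autosomes other than 1, 8 and 14, with the primed epiblast-like cluster added, over all filtered cells (with doublets removed or kept, or at 5000 UMIs) and without the Nanos3-led or the Usp26-led cluster. Past a looser limit of 0.32 on the log2 scale were 4, and the share of all genes past it is not given here. The 10th and 90th percentiles of all genes were -0.61 and 0.44, so that limit lies inside their spread. Mtf2 (-0.10) was 0.18 over all filtered cells and 0.19 with the primed epiblast-like cluster added. Of all genes 15.8% were past 1.5-fold, 6.98% without a minimum level, and 1.89% (Rhox9-led), 4.69% (Nanos3-led) and 6.31% (Usp26-led) within clusters.

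For the wider list the median over all 54 genes (-0.03) was 0.065 with trimmed mean scaling. The germline target median (-0.40) was -0.27 with it and -0.12 over all filtered cells. In the primed epiblast-like cluster the median over the 8 genes (-0.34) was -0.38 with Polycomb genes kept in the clustering, -0.38 with trimmed mean scaling, and -0.28, -0.54 and -0.62 against the Rhox9-led, Nanos3-led and Usp26-led clusters alone. For X dosage the median (0.03 at time 1, 0.003 at time 2) was 0.079 at time 1 with the primed epiblast-like cluster added, and 0.057 and -0.030 with scaling to autosomes other than 1, 8 and 14. For S over G2M at time 2 (0.08) it was 0.061 after thinning and 0.10 with only the cells of the most extreme scores. The causes were not tested. With 1 library per time point, depth limits only the counting error.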
